A study of Mus musculus with 12 samples.

Results

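Of 42554 rows in the liver count table, 38 genes had a higher mean level on a high-fat diet in wild-type mice and a lower one in mice lacking NLRP6. A member had to reach a ratio of high-fat to normal diet of at least 1.5 in wild type (WT) and of at most 0.67 in the knockout (KO). The ratios were taken between group means in CPM (a gene's share of its library's total count, scaled so that every library has the same total) with 0.1 CPM added. Only annotated genes with a 12-library mean of 1 to 1000 CPM were considered. Genes within 200 ID numbers of the gene that has no count in any KO library were left out. These limits admitted 11702 genes, of which the 38 members are 0.325%. The members were thus chosen on the measured diet ratios of all 12 libraries, and both diet ratios below describe that choice and support nothing.

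The 4 groups were WT on normal diet (WT ND), WT on high-fat diet (WT HFD), NLRP6 knockout on normal diet (KO ND) and NLRP6 knockout on high-fat diet (KO HFD), with 3 libraries each. Mice were 8 weeks old when their diets diverged, and feeding lasted 12 weeks after that. The series asks what NLRP6 does in lipid droplet accumulation in hepatocytes and states that its loss was checked in hepatocytes. Whether other cells lack NLRP6 is unstated in the sources used here, as are strain, sex and allele. Total counts per library ran from 13339879 to 15933886. The gene used to place the ID limit had 2019 to 2981 counts in each WT library and 0 in each KO library. Because the IDs are paired with no symbol here, neither the members' functions nor liver cell markers were analysed, and members are given by ID (4 of them) or by level.

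NLRP6 is a cytosolic sensor of the NOD-like receptor family, best known for inflammasome assembly and for shaping gut barrier and microbial balance. The liver takes up, makes, burns and exports fatty acids, and a sustained high-fat diet changes the transcripts of many of these steps as well as those of immune and stromal cells that enter or expand in a fatty liver. In a bulk liver library, fewer cells of a type and less RNA per cell cannot be told apart.

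The combination was uncommon among genes that passed either limit. In WT, 1134 of the 11702 genes reached the ratio of 1.5, and 3.35% of them also reached the KO limit, which 31.4% of all 11702 genes reached. The opposite combination, at most 0.67 in WT with at least 1.5 in KO, was met by 119 genes. The members' WT ratio ran from 1.503 to 7.14 with a median of 1.88, and their KO ratio from 0.168 to 0.658 with a median of 0.541. Over all 11702 genes the median ratio was 0.788 in WT and 0.866 in KO, so a gene of average response on this scale was lower on HFD in each genotype. A further 221 annotated genes met the ratios with a mean under 1 CPM and are not members.

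**Figure D1:**
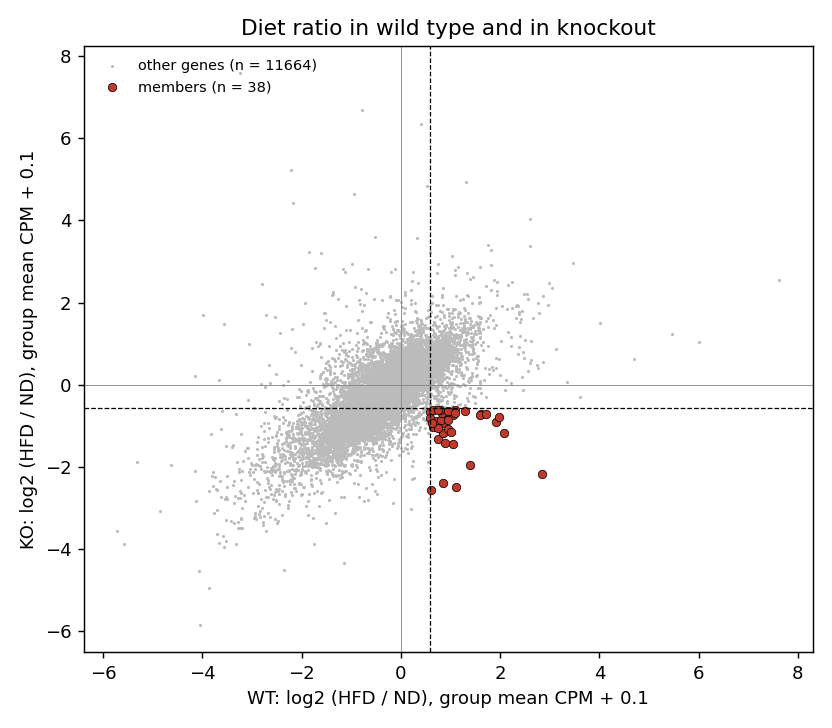
Log2 ratio of HFD to ND in KO (vertical) against WT (horizontal) for 11702 genes, from group means in CPM with 0.1 added; dashed lines mark the limits of 1.5 and 0.67. The 38 members (red) lie below and to the right of the main cloud, most of them close to the corner where the limits cross.

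Many members lay close to a limit. The members nearest the WT limit had WT ratios of 1.503, 1.503 and 1.52, and the nearest genes outside it had 1.48, 1.46 and 1.45. The members nearest the KO limit had KO ratios of 0.658, 0.656 and 0.656, and the nearest genes outside it had 0.676, 0.684 and 0.693. At the level limit the members with the lowest means had 1.16, 1.23 and 1.24 CPM, and the nearest genes outside had 0.961, 0.916 and 0.858 CPM.

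The members fell into 8 abundant genes with means of 85.0 CPM and above, and 30 genes with means of 14.8 CPM and below. The abundant genes held 91.1% of all counts that fell on members, and the most abundant alone held 30.9%. The median member had a mean of 4.11 CPM, against 18.2 CPM over all 11702 genes. At such levels counts were small: 13 members had fewer than 10 counts in at least 1 library. KO HFD replicate 2 held 0 counts for 3 members, which allows up to 0.223 CPM each (3 counts of its total, counting error only).

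Summed over the 38 members, the WT ND libraries held 848, 662 and 1046 CPM in replicates 1 to 3, and the WT HFD libraries 1917, 1522 and 1500 CPM. The KO ND libraries held 1596, 3802 and 1465 CPM, and the KO HFD libraries 1600, 775 and 942 CPM. WT ND and WT HFD did not overlap, whereas KO HFD replicate 1 lay above 2 of the 3 KO ND libraries. The mean of KO ND was 2288 ± 1313 CPM (SD, n = 3), and 1530 CPM without replicate 2, which is below the WT HFD mean of 1646 ± 235 CPM (SD, n = 3).

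With every member given equal weight, by dividing its CPM by its own 12-library mean, the groups separated more evenly. In WT the median scaled level was 0.471 to 0.584 on ND and 0.959 to 1.46 on HFD. It was 1.20 to 1.76 across KO ND. In KO HFD it was 0.949 in replicate 1, 0.576 in replicate 2 and 0.606 in replicate 3. On this scale KO HFD replicates 2 and 3 were therefore near the level of the WT ND libraries, and KO HFD replicate 1 was close to the lowest WT HFD library.

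**Figure D2:**
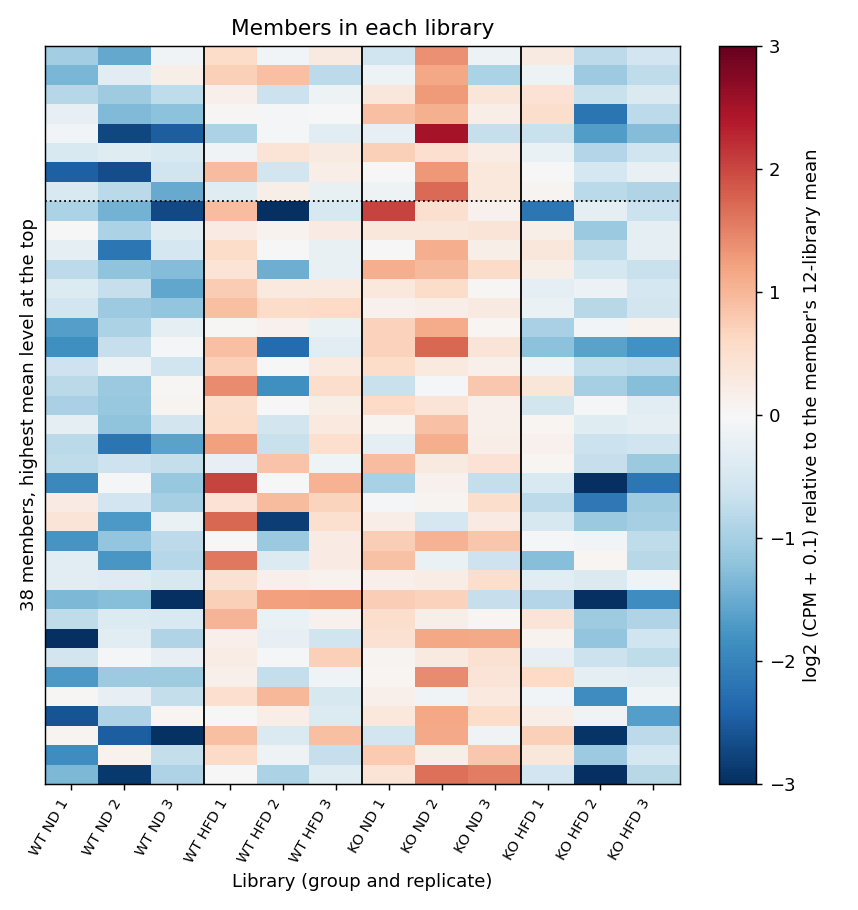
Log2 level (CPM with 0.1 added) of each of the 38 members in the 12 libraries, relative to that member's 12-library mean; rows run from the highest mean level at the top, the dotted line divides the 8 abundant members from the other 30, and colours saturate at 3 log2 units either way. WT ND and KO HFD replicates 2 and 3 are mostly blue, and WT HFD replicates 1 and 3 and KO ND mostly red. WT HFD replicate 2 and KO HFD replicate 1 are mixed, with median levels of 0.959 and 0.949 of the members' means. KO ND replicate 2 is the reddest column among the 8 abundant members.

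KO ND replicate 2 stood apart for the abundant members. It was the highest of all 12 libraries for 7 of the 8, and for 18.1% of the 2637 genes of at least 50 CPM within the limits. The most abundant member had 222, 157 and 424 CPM in WT ND and 668, 432 and 551 CPM in WT HFD. In KO it had 298, 1175 and 408 CPM on ND and 552, 264 and 304 CPM on HFD. Its KO values overlapped between diets, since only KO ND replicate 2 lay above KO HFD replicate 1.

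Another abundant member was at 97.9, 652 and 72.1 CPM in KO ND and at 73.2, 36.0 and 47.0 CPM in KO HFD. Its KO ratio of 0.190 rested largely on replicate 2 of KO ND. Without that library the KO ratios of the 8 abundant members were 0.490 to 1.06, and 3 of the 8 still met the rule.

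The exception among the abundant members varied least. It had 82.7, 88.8 and 82.8 CPM in WT ND and 107, 151 and 139 CPM in WT HFD. In KO it had 188, 162 and 134 CPM on ND and 99.0, 62.2 and 75.5 CPM on HFD. The diets did not overlap in either genotype. Its log2 fold change on HFD was 0.93 in WT (SE 0.20, edgeR adjusted p = 0.00234) and -0.82 in KO (SE 0.20, edgeR adjusted p = 0.00438).

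The order of replicates within a group was no part of the rule, but it is not independent of the choice, since 1 high library raises its group mean. Without KO ND replicate 2, 26 of the 38 members still met the rule, and without WT HFD replicate 1, 27 did. The counts that follow are a description. KO HFD replicate 1 was the highest library of its group for 32 of 38 members, against 31.3% of the 11702 genes. The same library was the lowest of its group for 53.3% of the 11702 genes, so it stood apart beyond the members. WT HFD replicate 1 was the highest of its group for 25 members, against 37.8% of the genes, and KO ND replicate 2 for 20, against 34.8%. In WT ND no replicate took that place for most members: replicates 1 to 3 were the highest for 17, 9 and 12.

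In 10 members the diets overlapped in neither genotype, with all 3 HFD values above all 3 ND values in WT and below them in KO. Overlap was counted in CPM by library totals alone. This held for 0.248% of the 11702 genes, and since the rule used these contrasts nothing is read from it. HFD lay wholly above ND in WT for 20 members (14.9% of all genes), and HFD wholly below ND in KO for 20 (38.6% of all genes). For 8 members the diets overlapped in both genotypes.

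Members given by ID number 4, taken from those 10 with means of at least 2 CPM. Among these 10, MGP_C57BL6NJ_G0023943 and MGP_C57BL6NJ_G0020313 had the largest WT ratios, 3.75 and 7.14. MGP_C57BL6NJ_G0003945 and MGP_C57BL6NJ_G0020814 had the lowest KO ratios of the rest of the 10, 0.370 and 0.474. Members outside the 10 had WT ratios above 3.75 and KO ratios below 0.370.

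MGP_C57BL6NJ_G0023943 had 18.04, 15.5 and 65.8 CPM in WT ND and 193, 67.5 and 113 CPM in WT HFD. In KO it had 98.5, 246 and 123.3 CPM on ND and 98.0, 68.6 and 84.6 CPM on HFD. The diets were separated by narrow gaps, between WT ND replicate 3 and WT HFD replicate 2 and between KO ND and KO HFD replicates 1. It rose on HFD in WT (log2 fold change 2.20, SE 0.64, edgeR adjusted p = 0.0213). In KO its log2 fold change was -0.69 (SE 0.61, edgeR adjusted p = 0.388), so the opposite direction in KO did not pass the test. The WT call was lost without WT ND replicate 1, WT ND replicate 2 or WT HFD replicate 1, with edgeR adjusted p of 0.0655, 0.0629 and 0.0718. It was also lost with no low-count filter (0.0519) and with only the 6 WT libraries fitted (0.0665).

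MGP_C57BL6NJ_G0020313 showed the largest separation and was the least abundant of the 4. It had 0.727, 0.770 and 0.0711 CPM in WT ND (11, 11 and 1 counts) and 3.34, 4.81 and 4.88 CPM in WT HFD (46, 70 and 67 counts). In KO it had 3.39, 3.29 and 1.21 CPM on ND (54, 47 and 18 counts) and 1.05, 0 and 0.476 CPM on HFD (14, 0 and 7 counts). WT ND and KO HFD held similar low levels, and WT HFD and KO ND the high ones. It rose on HFD in WT (edgeR adjusted p = 0.00378, log2 fold change 3.31, SE 0.74) and fell there in KO (edgeR adjusted p = 0.0359, log2 fold change -2.14, SE 0.76). The fall in KO was no longer called in 5 of the 12 fits that left out 1 library. These were the fits without WT HFD replicate 3, KO ND replicates 1 or 2, and KO HFD replicates 2 or 3 (edgeR adjusted p 0.0518, 0.0997, 0.0968, 0.0652 and 0.1001). It was also lost with no low-count filter (0.0836) and with only the 6 KO libraries fitted (0.0652).

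MGP_C57BL6NJ_G0003945 had 3.17, 1.75 and 1.28 CPM in WT ND and 3.63, 5.22 and 4.30 CPM in WT HFD. In KO it had 2.57, 2.80 and 3.89 CPM on ND and 1.499, 0.520 and 1.22 CPM on HFD. KO HFD was the lowest group, 1.08 ± 0.505 CPM against 2.07 ± 0.986 CPM in WT ND (SD, n = 3 each). It rose on HFD in WT (log2 fold change 1.36, SE 0.39, edgeR adjusted p = 0.0126) while in KO it fell (edgeR adjusted p = 0.0220, log2 fold change -1.29, SE 0.42). The WT call was lost without WT ND replicate 2 or 3 (edgeR adjusted p 0.0516 and 0.0589), and the KO call without KO ND replicate 3 or KO HFD replicate 2 (0.0808 and 0.0737).

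MGP_C57BL6NJ_G0020814 had 1.85, 2.03 and 1.92 CPM in WT ND and 2.69, 5.83 and 2.92 CPM in WT HFD. In KO it had 6.15, 3.86 and 4.36 CPM on ND and 3.30, 1.93 and 1.43 CPM on HFD. WT HFD replicate 2 was about as high as the highest KO ND library, while the other WT HFD libraries stayed just above WT ND. It rose on HFD in WT (log2 fold change 1.27, SE 0.38, edgeR adjusted p = 0.0164), a call lost without WT HFD replicate 2 (0.82, edgeR adjusted p = 0.0992). In KO the log2 fold change was -0.90 (SE 0.37, edgeR adjusted p = 0.0615), and it passed without WT HFD replicate 2 (0.0384) or KO HFD replicate 1 (0.0112).

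**Figure D3:**
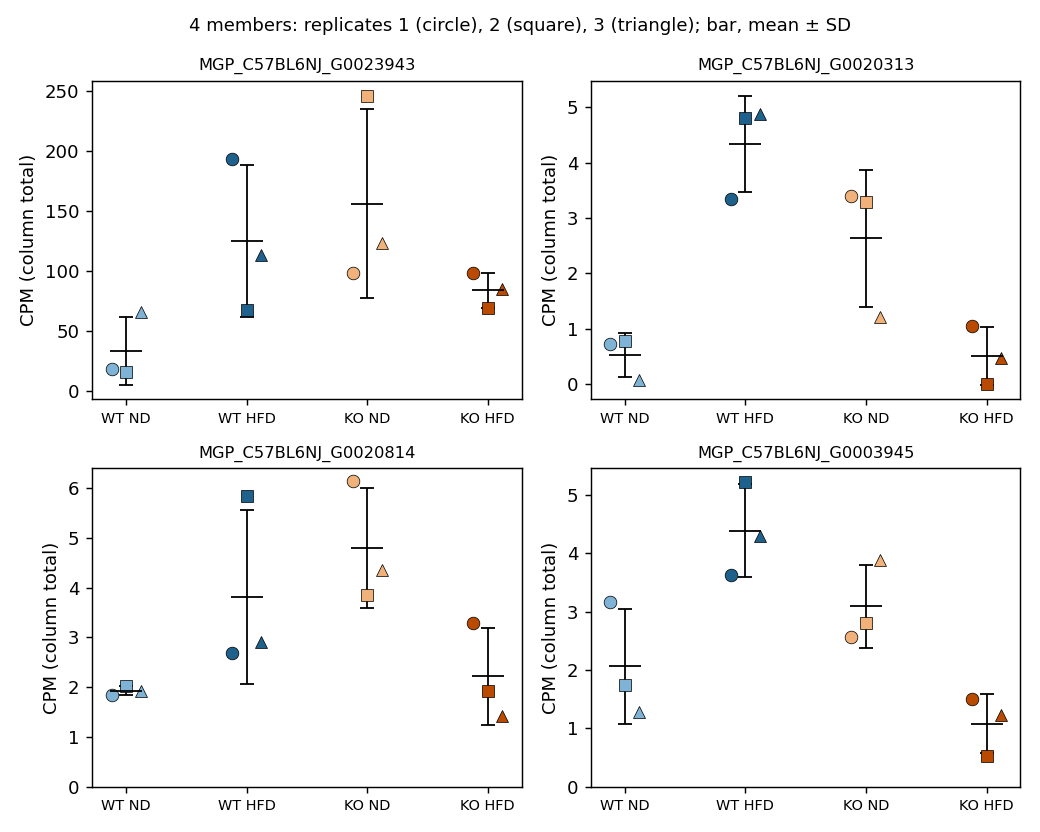
CPM of 4 members in each library, by group; symbols mark replicates 1 to 3 and bars the mean ± SD. For MGP_C57BL6NJ_G0020313 the WT HFD libraries sit between 3.34 and 4.88 CPM and the KO HFD libraries between 0 and 1.05 CPM, while MGP_C57BL6NJ_G0023943 spreads from 98.5 to 246 CPM within KO ND.

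Across the 13843 genes with enough counts to be tested, which include all 38 members, the diet contrasts gave calls for part of the members. In WT, 22 of 38 were called higher on HFD, beside 19.5% of all genes tested. In KO, 6 of 38 were called lower on HFD, beside 22.1% of all genes tested. The rule used both contrasts, so nothing is read from these shares. The median log2 fold change of the members was 1.23 in WT and -0.69 in KO, against -0.03 and 0.01 over all genes tested. Only 4 members were called in both genotypes, and 13 were called in no comparison. The matching shares over all genes were not taken, so these counts are a description.

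The counts moved with single libraries. Leaving out WT ND replicate 2, WT ND replicate 3 or WT HFD replicate 1 gave WT counts of 11, 14 and 10. For KO, omitting KO HFD replicate 1 raised the count to 14, while omitting KO HFD replicate 2, KO HFD replicate 3 or KO ND replicate 2 lowered it to 2, 3 and 3.

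The rule fixed how far the WT and KO responses had to differ, but not on which diet the genotypes differed. All 38 members had a higher mean in KO than in WT on ND, by 1.22-fold to 6.95-fold with a median of 2.38-fold. Over all 11702 genes 47.0% were higher in KO on ND, with a median ratio of 0.984. On HFD 36 of 38 were lower in KO, with ratios of 0.137 to 1.18 and a median of 0.596, whereas 63.5% of all genes were higher there. These ratios come from the libraries that chose the members and are tied to the diet ratios, so they are given as a description.

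The genotype ratio was larger on ND than on HFD for 27 members and larger on HFD for 11. It was at least 2-fold on ND alone for 21 members, on HFD alone for 5, on both for 4 and on neither for 8. Among all 11702 genes, 1.44% were at least 2-fold higher in KO on ND and 0.931% at least 2-fold lower in KO on HFD. The highest ratio on ND, 6.95, belonged to the least abundant member, with 0.345 ± 0.253 CPM in WT ND and 2.99 ± 1.24 CPM in KO ND (SD, n = 3 each). The lowest ratio on HFD, 0.137, was that of MGP_C57BL6NJ_G0020313.

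**Figure D4:**
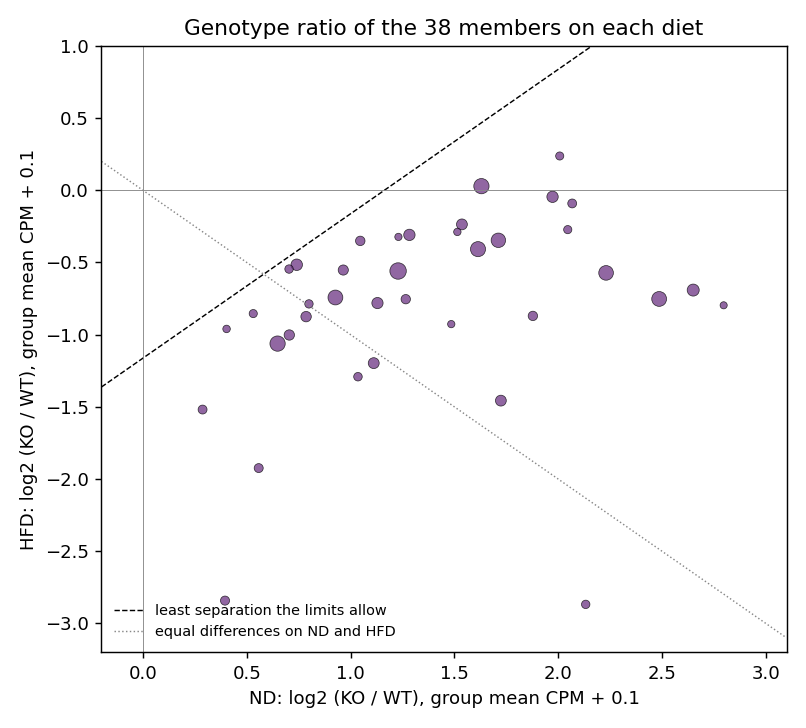
Log2 ratio of KO to WT on HFD (vertical) against ND (horizontal) for the 38 members, from group means in CPM with 0.1 added; larger points are more abundant members. The limits place every member below the dashed line, all 38 lie to the right of 0 on ND, and 27 lie above the dotted line, where the ND difference is the larger one.

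Group by group, 19 members ran in the order WT ND, KO HFD, WT HFD, KO ND from lowest to highest mean. In 8 members the order was KO HFD, WT ND, KO ND, WT HFD, and in 7 it was WT ND, KO HFD, KO ND, WT HFD. The last 4 members followed the remaining orders that were found, 2 each. WT ND was thus the lowest group for 28 members, and for 19 without KO HFD replicate 1. Neighbouring groups often overlapped: the mean of KO HFD lay within the range of the 3 WT ND libraries for 21 of 38 members. The ratio of KO HFD to WT ND had a median of 1.24 over members, and of 0.959 with KO HFD replicate 1 omitted, so its side of 1 rested on that library. The rule used both means, and the ratio is a description.

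In the test of KO against WT on ND, 10 of 38 members were called higher in KO, beside 1.96% of all genes tested. The rule used the means of both groups in these libraries, so nothing is read from this share or from the count of groups that did not overlap. Their log2 fold changes ran from 0.95 to 3.09, their means from 1.16 to 164 CPM, and in all 10 the genotypes did not overlap on ND. Over all 38 members the genotypes did not overlap on ND in 28, beside 15.2% of all 11702 genes. At an unadjusted edgeR p under 0.05 there were 27 members higher in KO, but the share over all genes was not taken and nothing is read from it. No call was left (0 members) when WT ND replicate 2 or KO ND replicate 2 was omitted. Omitting WT ND replicate 1, WT ND replicate 3 or KO ND replicate 1 left 5, 4 and 5. DESeq2 called 20 members, also without a share over all genes. None of the 4 members given by ID was called in this comparison by edgeR, with adjusted p from 0.0579 to 0.423. By DESeq2 3 of them passed, as they did in edgeR fits with 1 library omitted: MGP_C57BL6NJ_G0023943 (WT ND replicate 3), MGP_C57BL6NJ_G0020313 (KO HFD replicate 1 or 2) and MGP_C57BL6NJ_G0020814 (WT HFD replicate 2 or KO HFD replicate 1).

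In the test of KO against WT on HFD, 1 of 38 members was called lower in KO, beside 0.159% of all genes tested. Here too the rule used both means, and nothing is read from the shares of members called or not overlapping. The called member, singled out after its values were seen, had on HFD 14.1, 11.1 and 11.4 CPM in WT against 6.52, 4.16 and 5.10 CPM in KO. The groups did not overlap, and its log2 fold change was -1.27 (SE 0.23, edgeR adjusted p = 0.0373). It was also called higher in KO on ND (1.14, SE 0.24, edgeR adjusted p = 0.0185), where it had 5.02, 3.50 and 3.27 CPM in WT and 8.22, 8.48 and 9.12 CPM in KO. Its HFD call was lost in 9 of the 12 fits that left out 1 library and held without WT ND replicate 1, WT ND replicate 3 or KO HFD replicate 1. The genotypes did not overlap on HFD in 10 members, beside 4.26% of all 11702 genes. On HFD, 11 members had an unadjusted edgeR p under 0.05, and DESeq2 called 4. Neither share over all genes was taken, so nothing is read from these counts. With KO HFD replicate 1 omitted edgeR called 7, and with WT ND replicate 1 omitted it called 2.

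For MGP_C57BL6NJ_G0003945 and MGP_C57BL6NJ_G0020313 the log2 fold change between genotypes on HFD was -2.07 (SE 0.41, edgeR adjusted p = 0.0637) and -3.13 (SE 0.75, edgeR adjusted p = 0.131). DESeq2 gave the same log2 values to within 0.05 with adjusted p of 0.000329 and 0.00231. Omitting KO HFD replicate 1 brought both past the edgeR threshold (0.00643 and 0.0127), and MGP_C57BL6NJ_G0003945 also passed with WT ND replicate 1 omitted (0.0386) or with no low-count filter (0.00523). MGP_C57BL6NJ_G0023943 and MGP_C57BL6NJ_G0020814 had log2 fold changes of -0.64 and -0.84 on HFD (edgeR adjusted p = 0.757 and 0.424).

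The interaction compares the diet response of KO with that of WT, a difference whose sign and least size the rule set. It was called for 6 of 38 members, beside 0.441% of all genes tested, and nothing is read from that share. The 6 had log2 differences of -5.46 to -1.75 and means of 2.001 to 114 CPM. In all 6 the diets overlapped in neither genotype in CPM by library totals, which is not the scaling of the test. The median log2 difference of all members was -2.03, against 0.02 over all genes tested. Omitting KO HFD replicate 1 raised the count to 19. Omitting WT HFD replicate 3 or KO HFD replicate 3 left 1 each, omitting WT ND replicate 2 or KO ND replicate 2 left 2 each, and omitting KO ND replicate 1 left 3. DESeq2 called 18.

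Whether the pattern recurs in libraries that did not choose the genes was read by leaving out 1 replicate number from all 4 groups. The rule was applied to the other 8 libraries, and the 4 libraries left out were then examined. Their genes are chosen anew each time, so some are not among the 38 and some recur between the 3 turns. Over the 3 turns 156 choices were made, and 60 of them (38.5%) were again higher on HFD in WT and lower on HFD in KO in the left-out libraries. Of all genes within the limits, 8.07% to 10.2% had both directions in those libraries. At the full limits of 1.5 and 0.67, 26 choices (16.7%) passed again, against 0.634% to 1.24% of all genes. Over all genes the median diet ratio in those libraries was below 1 in both genotypes, 0.777 to 0.797 in WT and 0.791 to 0.920 in KO. All genes are therefore no measure of what variable genes of low level would give. No share was taken for genes of like level and spread, so recurrence beyond theirs is not shown.

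The outcome differed between replicate numbers. With replicates 1 left out, 19 of 72 chosen genes kept both directions: 53 were higher on HFD in WT, but only 30 were lower in KO, where the median ratio was 1.22. With replicates 2 left out, 11 of 35 kept both: 25 were lower on HFD in KO, but only 16 were higher in WT, where the median ratio was 0.838. With replicates 3 left out, 30 of 49 kept both, and the median ratios were 1.68 in WT and 0.596 in KO. In 2 of the 3 turns, then, 1 arm of the pattern was not seen in the median chosen gene.

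The genotype difference on ND recurred more often than that on HFD. In the left-out libraries 122 of 156 choices (78.2%) were higher in KO on ND, against 45.5% to 51.0% of all genes, with median ratios of 1.22, 1.57 and 1.70 in the 3 turns. On HFD 95 of 156 (60.9%) were lower in KO, against 36.9% to 48.5% of all genes, with median ratios of 0.981, 0.949 and 0.705. No test was made of these shares, because the choices overlap between turns and genes are not independent.

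**Figure D5:**
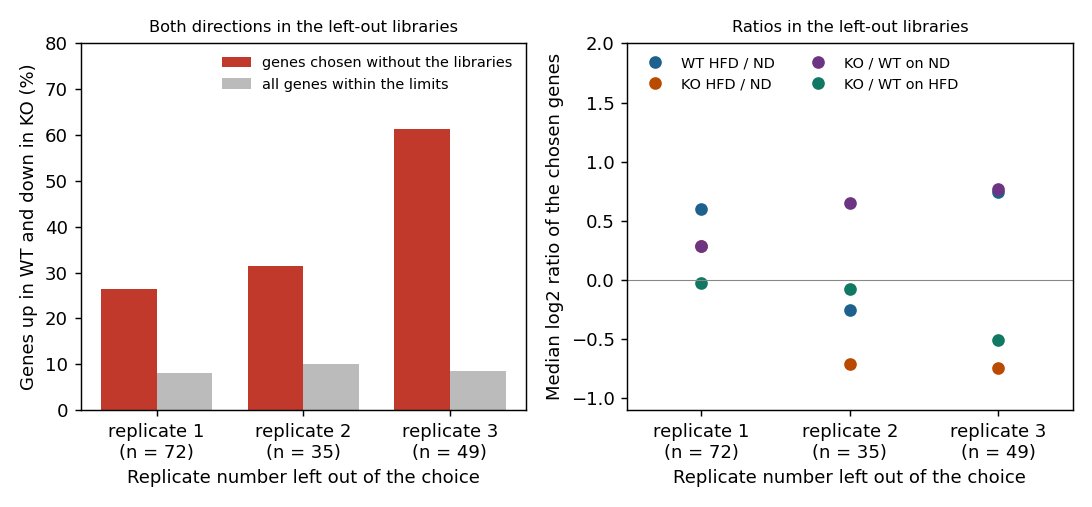
Left, percent of genes higher on HFD in WT and lower on HFD in KO in libraries not used to choose them, for the chosen genes (red) and all genes within the limits (grey), by the replicate number left out; right, median log2 ratios of the chosen genes in the same libraries. The chosen genes reach 26.4%, 31.4% and 61.2%, against 8.07%, 10.2% and 8.53% of all genes, and the KO diet ratio lies above 0 for replicates 1 and the WT diet ratio below 0 for replicates 2.

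Members varied more between replicates than other genes did. The median SD of log2 CPM (TMM-scaled, prior count 2) within a group was 0.65 in WT ND, 0.45 in WT HFD, 0.47 in KO ND and 0.61 in KO HFD, against 0.19, 0.20, 0.16 and 0.25 over genes within the limits. Members were also of lower abundance (median mean 4.11 against 18.2 CPM). A rule on means of 3 libraries can also admit genes through 1 extreme value. The part of either in the wider spread was not tested.

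Deviations from the group means ran partly together. They are not independent of the choice, since 1 high library enters both a deviation and a group mean that the rule used. KO ND replicate 2 was the highest of all 12 libraries for 17 of 38 members, against 15.8% of the 11702 genes. Over 703 pairs of members the median Pearson correlation across the 12 libraries was 0.288, and 27.03% of pairs were above 0.5. Over all pairs of 11701 genes the median was near 0 and 13.9% were above 0.5. Among the 8 abundant members the median was 0.502, against 0.0367 for pairs of the 2637 genes of like abundance. KO ND replicate 2 was the highest library for 7 of these 8, and their median was not taken without it. These are descriptions across 12 libraries that all pairs share. The median over members was 0.288 without KO ND replicate 2, 0.266 without WT HFD replicate 1 and 0.181 without KO HFD replicate 1. How much of it the choice of members made was not tested.

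Membership depended on the libraries and on the scaling. Leaving out 1 library at a time gave 30 to 65 genes that met the rule, of which 26 to 36 were among the 38. The 65 came without KO HFD replicate 1. Only 6 members met the rule in all 12 such choices, MGP_C57BL6NJ_G0003945 and MGP_C57BL6NJ_G0020313 among them, with WT ratios of 1.75 to 7.14 and KO ratios of 0.223 to 0.553.

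Trimmed mean of M-values (TMM) library sizes raised HFD relative to ND by a median log2 of 0.29 in WT and 0.20 in KO. On that scale every member stayed higher on HFD in WT (lowest ratio 1.82) and lower on HFD in KO (highest ratio 0.773), and 23 of 38 still met both limits. All 38 stayed higher in KO on ND, and 37 lower in KO on HFD. The separation of diets by library was less stable. The TMM factors were 1.07 to 1.10 in KO ND and 0.889 in KO HFD replicate 1. With them KO HFD replicate 1 overlapped KO ND for MGP_C57BL6NJ_G0023943, MGP_C57BL6NJ_G0020313 and MGP_C57BL6NJ_G0020814, but not for MGP_C57BL6NJ_G0003945.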

How the data were processed

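The authors deposited 1 table of raw read counts per gene for 12 liver libraries, whole numbers with different totals. Per the submitters' processing notes, mm39, featureCounts 1.5.0-p3 and HISAT2 2.0.5 were used, with no roles stated. The IDs are of a C57BL/6NJ strain annotation, so the build is uncertain and no coordinates are given. The sources used here state neither multi-mapped read handling nor a strand setting, so near-identical, overlapping and antisense genes are uncertain. Of the members, 0 matched a symbol, and fixed gene lists were not analysed here. The labels name no animals, so p-values measure the spread between samples, which may be partly technical. Replicates were not duplicates (chi-square per degree of freedom 8.67 to 181). The highest values, 181 and 103, were those of KO HFD replicate 1 against replicates 2 and 3 of its group, which gave 25.2 against each other.

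Counts were tested with edgeR 4.0.16 in R 4.3.3 (quasi-likelihood F-test, robust, TMM, filterByExpr, 4 group means over 12 libraries, no block). Adjusted p is Benjamini-Hochberg over 13843 genes, called under 0.05. DESeq2 1.42.0 was an alternative, and the steps were tested on simulated data. Log CPM used a prior count of 2. The members given by ID followed a rule: diets overlapping in neither genotype, a mean of at least 2 CPM, then the 2 steepest WT ratios and the 2 lowest KO ratios left. The members and lists were chosen with earlier results of these data known. Deviations of same-numbered libraries in different groups had correlations of -0.02 to 0.25 (18 pairs, median 0.055, 5 above 0.1). Those of differently numbered libraries had -0.22 to 0.19 (36 pairs, median -0.038, 2 above 0.1). These weak correlations do not settle whether the numbers pair the samples.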

Additional observations from a re-analysis of the deposited data

Results flagged for a closer look

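The diet response differed between genotypes by the interaction term of edgeR for 6 members, a difference whose sign and least size the choice of members set. Of the members given by ID, MGP_C57BL6NJ_G0003945 passed at an edgeR adjusted p of 0.0398 (log2 difference -2.65, SE 0.57), and MGP_C57BL6NJ_G0020313 at an edgeR adjusted p of 0.0321 (log2 difference -5.46, SE 1.06). For MGP_C57BL6NJ_G0003945 the call was lost in 10 of the 12 fits that left out 1 library, and held without WT ND replicate 1 or KO HFD replicate 1 (adjusted p over all alternatives 0.000695 to 0.115). For MGP_C57BL6NJ_G0020313 it was lost in 7 of 12: without WT ND replicates 2 or 3, WT HFD replicates 2 or 3, KO ND replicates 1 or 2, or KO HFD replicate 3 (1.68e-05 to 0.110). It was also lost with no low-count filter (0.0512). All of these fits kept the direction.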

How the results depend on the processing

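The number of genes that met the rule was 38, and 37 with TMM library sizes or 38 with DESeq2 size factors, of which 23 in each case were among the 38. It was 22 with 1 CPM added, 58 with group medians, 18 from a mean of 5 CPM and 6 with limits of 2 and 0.5. Leaving out 1 library gave 30 to 65. For members called by edgeR, leaving out 1 library gave 10 to 23 for the diet in WT, 2 to 14 for the diet in KO, 0 to 14 for genotype on ND, 0 to 7 for genotype on HFD and 1 to 19 for the interaction. DESeq2 called 20 on ND, 4 on HFD and 18 for the interaction. The cause was not tested, and DESeq2 shares over all genes were not taken. On HFD, 3 were called with no low-count filter and 0 from the 6 libraries compared alone, which has fewer samples to estimate the spread. With the replicate number as a block the counts were 19 and 7 for the diet in WT and KO, 10 on ND, 1 on HFD and 7 for the interaction, and 7 of 12 libraries correlated best with their own number. The median correlation of members was 0.233 with column totals and 0.181 to 0.363 with 1 library left out. The share of choices that kept both directions in left-out libraries was 42.9% with 1 CPM added and 37.4% with TMM. The counts of members higher in KO on ND, lower in KO on HFD and lowest in WT ND were checked with alternatives chosen after seeing the data, and ran from 36 to 38, 32 to 37 and 19 to 32. Of 336 alternatives for the 4 members given by ID, 35 ended a call, 23 made one and none reversed a direction. Low counts limit the members under 2 CPM, 9 of 38.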

Other observations

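Some members had neighbouring ID numbers. Within a span of 304 ID numbers, found by searching windows of 400 after the members were known, 21 genes were within the level limits and 5 of them were members. The span was chosen for holding members, so nothing is read from that share. These 5 had means of 1.23 to 10.7 CPM and were 1.67-fold to 2.80-fold higher in KO than in WT on ND. The median correlation of their deviations from group means was 0.495 over 10 pairs. The sources used here do not state what the ID numbers stand for in the genome, and whether these genes share reads was not tested.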
